A study of Mus musculus with 6 samples.

Results

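The genes described here are the 4 members of the TOX family (Tox, Tox2, Tox3 and Tox4) and 6 transcription factors that act in the choice between the CD4 and CD8 T cell lineages (Zbtb7b, Gata3, Runx1, Runx3, Patz1 and Satb1). They were picked by gene symbol for what is known of them, at a point when earlier results of these data were known. All 10 were found among the 22298 listed genes, and all 10 passed the filter on low counts, which 14121 genes passed. The libraries were made from total RNA of thymocytes sorted as double-negative, the T cell precursors without surface CD4 or CD8, from untreated C57BL/6 mice; the labels name the double-negative population, and the protocol names its DN2 stage. Toxf/f mice, the controls, carry Tox alleles flanked by recombination sites and no Cre, and Toxf/fPdcd1Cre mice carry the same alleles plus a Cre that takes its name from Pdcd1, which encodes the receptor PD-1. In each genotype replicates 1 and 2 came from mice of 3 weeks and replicate 3 from mice of 4 weeks. Toxf/f replicates 1 and 2 were deposited with the same values throughout and count here as 1 library, called the shared Toxf/f library, which left 2 Toxf/f and 3 Toxf/fPdcd1Cre libraries. The labels do not say whether a sample is 1 animal or a pool. Libraries of 3 and of 4 weeks must come from different mice. The spread behind each p-value is that between libraries and includes this difference of age. The labels do not say in which cells the Cre is active or which part of Tox is deleted.

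TOX proteins bind DNA through an HMG box, a domain that bends DNA. In the thymus Tox is induced during positive selection and is needed for CD4 T cells to form. Further on, Zbtb7b, which encodes ThPOK, directs cells to the CD4 fate, while Runx3 directs them to the CD8 fate by silencing Cd4 and Zbtb7b. Gata3 acts before Zbtb7b on the CD4 side, Runx1 silences Cd4 in double-negative cells, Patz1 encodes MAZR, a repressor of the Cd8 genes and of Zbtb7b, and Satb1 encodes an organizer of chromatin loops.

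Some values bear on what the libraries held. The total estimated count ranged from 14245492 to 16199195 per library. Coreceptor transcripts, which double-negative cells should hold at low levels, were abundant: by mean level over the 5 libraries Cd8a ranked 26, Cd8b1 ranked 69 and Cd4 ranked 105 among all genes. These levels go against the label, and "double-negative" is used here only as the name of the sort. Fewer cells of a type and less RNA per cell cannot be told apart in such bulk samples. On the first principal component (50.9% of the variance) Toxf/fPdcd1Cre replicate 1, at -9.35, stood apart from the other libraries of its genotype, at 38.6 and 41.0. On this component it lay nearer to the Toxf/f libraries, at -27.6 and -42.6. On the second component it stood apart from both genotypes. It was at -45.05 there, against 21.78 and 8.946 in Toxf/f and 10.78 and 3.544 in the other Toxf/fPdcd1Cre libraries. It also held 1 count of the chromosome Y gene Ddx3y against 843 to 1354 in the other libraries. Its mice were thus not those of Toxf/fPdcd1Cre replicate 2, which has the same age and held 843 counts. Where leaving it out moved the count of a list by over 1.5 times, the count without it is given.

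Of the 10 genes 2 fell in Toxf/fPdcd1Cre libraries, Tox and Zbtb7b, and 0 rose. A gene was called when its p from the quasi-likelihood test of edgeR, adjusted by Benjamini and Hochberg's method over all genes tested, was below 0.05. Over all of them 1.51% were called lower and 0.135% higher. Tox is the targeted gene, so its fall checks the labels. The other 8 genes were not called. For 6 of the 10 the log2 fold change lay within 0.15 of 0, and the median over the 10 was -0.05, against 0.03 over all genes tested. At an unadjusted p below 0.05, Tox, Zbtb7b, Tox2 and Runx3 were lower and 0 were higher, where 7.26% of all genes were lower and 3.08% higher. In CPM (counts scaled to library size by TMM) these 4 were also lower in each Toxf/fPdcd1Cre library than in either Toxf/f library, and 0 of the 10 were higher in each. Among all genes 13.5% were lower and 12.6% higher in this sense.

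**Figure D1:**
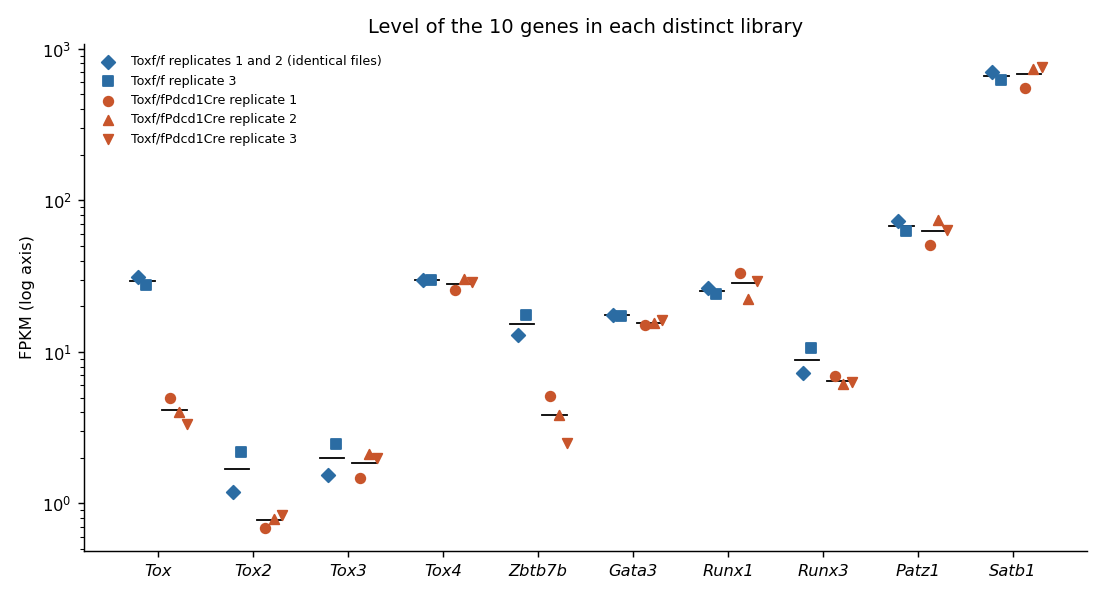
FPKM of the 10 genes (log axis) in each distinct library, blue for Toxf/f and orange for Toxf/fPdcd1Cre, with black bars at the group means. Tox and Zbtb7b separate widely between the genotypes, from means of 29.3 and 15.2 FPKM to 4.11 and 3.84 FPKM, while Satb1, the most abundant gene, runs from 547 to 757 FPKM with overlapping groups.

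On a scale that allows genes to be compared, FPKM (fragments per length of transcript and depth of library), Satb1 was the most abundant of the 10 and Patz1 the next in every library. Tox and Tox4 followed in both Toxf/f libraries, then Runx1. Gata3 and Zbtb7b came next and changed places between the Toxf/f libraries, then Runx3, and Tox3 and Tox2 were at the bottom in every library. In the Toxf/fPdcd1Cre libraries Tox stood at rank 7 or 8 and Zbtb7b at rank 8 or 7, both below Runx3 at rank 6. Several neighbours in this order did not separate beyond their spread: Tox4 at 29.7 ± 0.120 FPKM (SD, n = 2) and Tox at 29.3 ± 2.53 FPKM in Toxf/f, Gata3 at 17.4 ± 0.354 and Zbtb7b at 15.2 ± 3.23 FPKM in Toxf/f, Tox4 at 28.2 ± 2.41 (SD, n = 3) and Runx1 at 28.3 ± 5.57 FPKM in Toxf/fPdcd1Cre, and Tox3 and Tox2 in Toxf/f at 2.0 ± 0.658 and 1.70 ± 0.714 FPKM.

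The TOX family genes share most of the part of their coding sequence shown next, which is why it is printed: a reader can see how far reads of 1 gene could be taken for another. It is the stretch of 90 coding bases in which Tox (its only coding transcript in GENCODE M21, GRCm38) is most like the other 3 genes together, read 5′ to 3′ on the coding strand, with capitals at bases that differ from Tox.
Tox: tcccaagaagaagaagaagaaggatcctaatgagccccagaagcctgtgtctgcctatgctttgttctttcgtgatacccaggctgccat
Tox2: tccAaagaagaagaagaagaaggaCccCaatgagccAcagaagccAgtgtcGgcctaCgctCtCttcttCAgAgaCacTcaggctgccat
Tox3: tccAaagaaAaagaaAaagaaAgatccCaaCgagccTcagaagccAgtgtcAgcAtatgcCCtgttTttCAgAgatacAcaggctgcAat
Tox4: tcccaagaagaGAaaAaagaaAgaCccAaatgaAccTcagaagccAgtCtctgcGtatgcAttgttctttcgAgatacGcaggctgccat
The stretch lies within exon 5 of 9 of Tox at chr4:6722226-6722315 (minus strand), exon 5 of 9 of Tox2 at chr2:163315845-163315934 (plus strand), exon 5 of 7 of Tox3 at chr8:90254363-90254452 (minus strand) and exon 6 of 10 of Tox4 at chr14:52287354-52287443 (plus strand). Here Tox2 and Tox4 each share 76 of 90 bases with Tox (84.4%), and Tox3 shares 72 (80%). The longest run without a mismatch that any annotated transcripts of Tox share with those of another family gene was 24 bases, with Tox3, against 20 with Tox2 and 19 with Tox4. Read length is not given in the sources used here.

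Tox (ENSMUSG00000041272, chromosome 4 from 6686353 to 6991557, minus strand) held 1896 and 1746 counts in Toxf/f, against 281, 257 and 201 in Toxf/fPdcd1Cre libraries. Scaled to library size these were 121 and 105 CPM against 19.2, 16.4 and 13.8 CPM. Every Toxf/fPdcd1Cre library lay far below both Toxf/f libraries. Its log2 fold change was -2.78 ± 0.161 (SE) with a 95% interval of -3.13 to -2.43, so that 14.6% of the Toxf/f level was left (interval 11.4% to 18.6%, adjusted p = 6.72e-06, edgeR). The call held in all 17 alternatives to the processing, leaving out each library among them, with log2 fold changes from -2.94 to -2.58 and adjusted p of at most 0.00152. The count is for the whole gene, exons outside the deleted part included, so the 14.6% does not measure how much intact transcript remained.

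Tox4 (ENSMUSG00000016831, chromosome 14 from 52279146 to 52296401, plus strand), a widely expressed member that belongs to a nuclear phosphatase complex, was at 156 and 154 CPM in Toxf/f and at 133, 166 and 163 CPM in Toxf/fPdcd1Cre libraries. The groups overlapped, and the log2 fold change was -0.01 with a 95% interval of -0.31 to 0.29 (adjusted p = 0.990, edgeR). This interval leaves room for levels from 80.5% to 122% of Toxf/f. Tox4 overlaps Mettl3 by 1561 bases and Rab2b by 400 bases, both on the opposite strand, and the counts of Tox4 and Mettl3 were not all whole numbers. Mettl3 was not called (-0.0025 on the log2 scale, adjusted p = 0.998, edgeR), nor was Rab2b (0.05, adjusted p = 0.968).

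Tox2 (ENSMUSG00000074607, chromosome 2 from 163203125 to 163324170, plus strand), known from follicular helper T cells and natural killer cells, was scarce: 54 and 76 counts in Toxf/f, and 20, 32 and 32 in Toxf/fPdcd1Cre libraries. In CPM these were 3.46 and 4.58 against 1.37, 2.04 and 2.20. All 3 Toxf/fPdcd1Cre values lay below both Toxf/f values. The log2 fold change of -1.10 ± 0.379 did not pass the threshold (95% interval -1.93 to -0.27, unadjusted p = 0.0138, adjusted p = 0.269, edgeR). It stayed below 0 in all 16 alternatives that tested it, from -1.28 to -0.58, and passed the threshold in 0 of them. The values rest on 20 to 76 counts a library.

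Tox3 (ENSMUSG00000043668, chromosome 8 from 90247040 to 90348343, minus strand), better known from neurons and breast epithelium, was as scarce as Tox2 in the controls, with 53 and 79 counts. The Toxf/fPdcd1Cre libraries held 49, 79 and 73 counts. In CPM these were 3.39 and 4.76 against 3.35, 5.04 and 5.02, ranges that overlap almost entirely. The log2 fold change was 0.13 with a 95% interval of -0.58 to 0.85 (adjusted p = 0.954, edgeR), wide enough to hold levels from 66.8% to 180% of Toxf/f. The sign of this value changed with the scale, as it was -0.06 on log2(FPKM + 1).

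As parts of the family's summed FPKM, Tox made up 49.0% and 44.4% in Toxf/f, against 15.3%, 10.8% and 9.47% in Toxf/fPdcd1Cre libraries. Tox4 made up 46.7% and 48.1% in Toxf/f and 78.1%, 81.3% and 82.5% in Toxf/fPdcd1Cre. The sum itself was 63.4 and 61.9 FPKM against 32.6, 37.0 and 35.3 FPKM. Tox4 FPKM thus ran level with Tox in the controls (Tox over Tox4 was 1.05 and 0.923) and exceeded it in each Toxf/fPdcd1Cre library, where the ratio was 0.195, 0.134 and 0.115. The smaller sum went with less Tox, while Tox4 FPKM overlapped between the genotypes, from 25.5 to 30.0 FPKM against 29.6 and 29.8 FPKM.

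**Figure D2:**
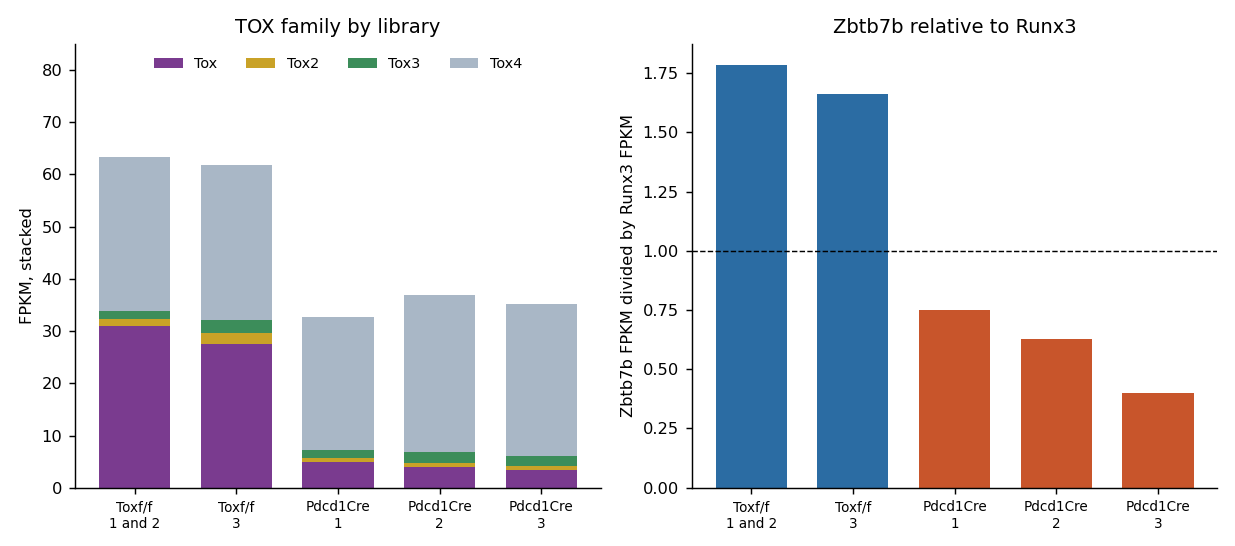
Left, stacked FPKM of the 4 TOX family genes in each distinct library; right, Zbtb7b FPKM divided by Runx3 FPKM in the same libraries (blue Toxf/f, orange Toxf/fPdcd1Cre, dashed line at 1). The Tox part shrinks in the 3 Toxf/fPdcd1Cre libraries, and the ratio drops from 1.78 and 1.66 to 0.748, 0.630 and 0.399. The ratio contains transcript lengths that differed between libraries.

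On the CD4 side Zbtb7b fell. Zbtb7b (ENSMUSG00000028042, chromosome 3 from 89377644 to 89394776, minus strand) held 561 and 860 counts in Toxf/f, against 275, 164 and 140 in Toxf/fPdcd1Cre libraries. In CPM these were 35.9 and 51.8 against 18.8, 10.5 and 9.63. The groups did not overlap, and Toxf/fPdcd1Cre replicate 1 was the highest of its genotype. Zbtb7b had a log2 fold change of -1.76 ± 0.261 with a 95% interval of -2.33 to -1.19, which leaves 29.5% of the Toxf/f level (adjusted p = 0.00590, edgeR). The call ended without either Toxf/f library: without the shared one the log2 fold change was -2.0 (adjusted p = 0.0529, edgeR) and without replicate 3 it was -1.47 (adjusted p = 0.209, edgeR). Without Toxf/fPdcd1Cre replicate 1 it was -2.17 (adjusted p = 0.00187, edgeR).

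Zbtb7b has 2 start sites in RefSeq (GRCm38.p6), 5707 bases apart, and since it is the only untargeted gene of the 10 that was called, the 250 bases before each are shown. Capitals mark matches to binding motifs of factors among or next to the 10 genes, searched on both strands: TGTGGT for RUNX, AGATAA for GATA and CTTTGA for the HMG-box factors TCF7 and LEF1.
Distal, chr3:89393379-89393628, minus strand: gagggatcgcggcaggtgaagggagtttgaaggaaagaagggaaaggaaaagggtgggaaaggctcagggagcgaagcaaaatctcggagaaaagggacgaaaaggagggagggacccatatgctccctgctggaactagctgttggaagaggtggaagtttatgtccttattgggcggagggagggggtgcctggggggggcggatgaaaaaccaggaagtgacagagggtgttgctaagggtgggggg
Proximal, chr3:89387672-89387921, minus strand: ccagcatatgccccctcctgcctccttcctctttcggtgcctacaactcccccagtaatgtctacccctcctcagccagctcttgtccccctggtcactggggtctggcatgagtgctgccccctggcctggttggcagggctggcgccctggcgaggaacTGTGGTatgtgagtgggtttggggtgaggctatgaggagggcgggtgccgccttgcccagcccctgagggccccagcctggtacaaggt
The distal window held none of these letters, and the proximal window held 1 RUNX match, which begins 89 bases before the start site. Of 32851 windows of the same length in the table, 14% held the RUNX motif, 9.99% the GATA motif and 13.8% the TCF/LEF motif. RefSeq windows were found for 9 of the 10 genes, all but Tox, and among their 21 windows 2 held a RUNX match (that of Zbtb7b and the distal window of Runx3, with 2 matches), 0 a GATA match and 3 a TCF/LEF match (in Tox2 and Patz1). The Tox2 matches are the same site, since their windows overlap (chr2:163225203-163225452 and chr2:163225204-163225453). Other windows of Tox2 and of Satb1 overlap too, so the 21 are not all separate sequences. A match is a description of the sequence and not evidence of binding.

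Gata3 (ENSMUSG00000015619, chromosome 2 from 9857078 to 9890034, minus strand) did not share the fall of Zbtb7b at a size the test could call. It was at 56.0 and 53.3 CPM in Toxf/f and 47.3, 51.4 and 54.2 CPM in Toxf/fPdcd1Cre libraries. The groups overlapped in CPM, although they did not in FPKM (17.6 and 17.1 against 15.1, 15.5 and 16.1). For Gata3 the log2 fold change was -0.10 with a 95% interval of -0.39 to 0.19 (adjusted p = 0.903, edgeR), and the interval reaches down to 76.2% of the Toxf/f level. Zbtb7b FPKM divided by Gata3 FPKM was 0.734 and 1.02 in Toxf/f and 0.341, 0.249 and 0.156 in Toxf/fPdcd1Cre libraries.

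**Figure D3:**
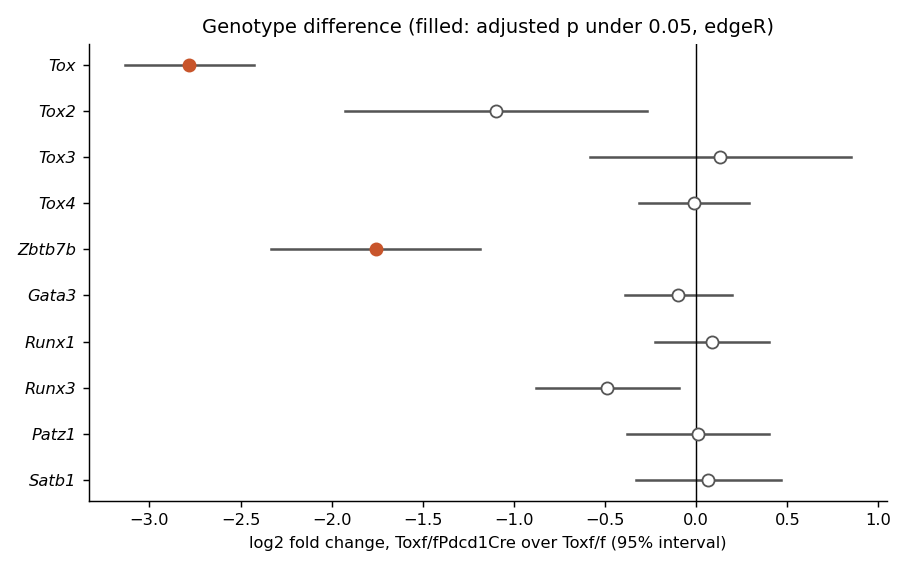
Log2 fold change of each gene, Toxf/fPdcd1Cre over Toxf/f, as a point with its 95% interval from edgeR; filled points were called. Tox at -2.78 and Zbtb7b at -1.76 are filled, the intervals of Tox2 and Runx3 end below 0 without a call after adjustment, and the other 6 intervals contain 0.

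Of the RUNX factors, Runx3 (ENSMUSG00000070691, chromosome 4 from 135120652 to 135177990, plus strand) held 421 and 645 counts in Toxf/f and 373, 377 and 303 in Toxf/fPdcd1Cre libraries. In CPM these were 27.0 and 38.9 against 25.5, 24.1 and 20.8. The groups did not overlap, but the lower Toxf/f value lay close above the highest Toxf/fPdcd1Cre value. The log2 fold change of -0.49 ± 0.179 was not called (95% interval -0.88 to -0.10, unadjusted p = 0.0189, adjusted p = 0.317, edgeR). Toxf/f replicate 3 decided much of its size, since the value was -0.20 without that library and -0.72 without the shared one. No Toxf/fPdcd1Cre library held more Runx3 than a Toxf/f library, and a relation to the level of Zbtb7b was not tested.

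Runx1 (ENSMUSG00000022952, chromosome 16 from 92601466 to 92826149, minus strand) was at 149.6 and 126.5 CPM in Toxf/f and at 153, 128 and 159 CPM in Toxf/fPdcd1Cre libraries. The groups overlapped, with a log2 fold change of 0.09 and a 95% interval of -0.23 to 0.40 (adjusted p = 0.925, edgeR). Per length, Runx1 exceeded Runx3 in every library, by a factor of 3.64 and 2.30 in Toxf/f and of 4.83, 3.63 and 4.66 in Toxf/fPdcd1Cre.

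Zbtb7b FPKM exceeded Runx3 FPKM in both Toxf/f libraries, with ratios of 1.78 and 1.66. In the 3 Toxf/fPdcd1Cre libraries the ratio was 0.748, 0.630 and 0.399, so that Runx3 was the higher of the pair in each. Like the other FPKM ratios of Zbtb7b, Runx1 and Runx3, these contain transcript lengths that differed between libraries. The lengths ran from 2623 to 3748 bases for Zbtb7b and from 3171 to 3817 for Runx3. On counts Zbtb7b was also above Runx3 in Toxf/f (561 against 421, 860 against 645). It was below Runx3 in Toxf/fPdcd1Cre libraries (275 against 373, 164 against 377, 140 against 303). The reversal came with a called fall of Zbtb7b and an uncalled difference of Runx3 in the same direction.

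Patz1 (ENSMUSG00000020453, chromosome 11 from 3288874 to 3309083, plus strand) was at 195 and 169 CPM in Toxf/f and at 140, 221 and 189 CPM in Toxf/fPdcd1Cre libraries. Its highest and lowest values both came from Toxf/fPdcd1Cre libraries. Its log2 fold change was 0.01 with a 95% interval of -0.38 to 0.40 (adjusted p = 0.992, edgeR), and its sign changed under 10 of the 17 alternatives.

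Satb1 (ENSMUSG00000023927, chromosome 17 from 51736187 to 51833290, minus strand) ranked 11 among all genes by mean level. It was at 2519 and 2170 CPM in Toxf/f and at 1912, 2672 and 2774 CPM in Toxf/fPdcd1Cre libraries. Toxf/fPdcd1Cre replicate 1 was the lowest of all 5, and the other Toxf/fPdcd1Cre libraries were the highest. Satb1 had a log2 fold change of 0.07 with a 95% interval of -0.33 to 0.46 (adjusted p = 0.962, edgeR).

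**Figure D4:**
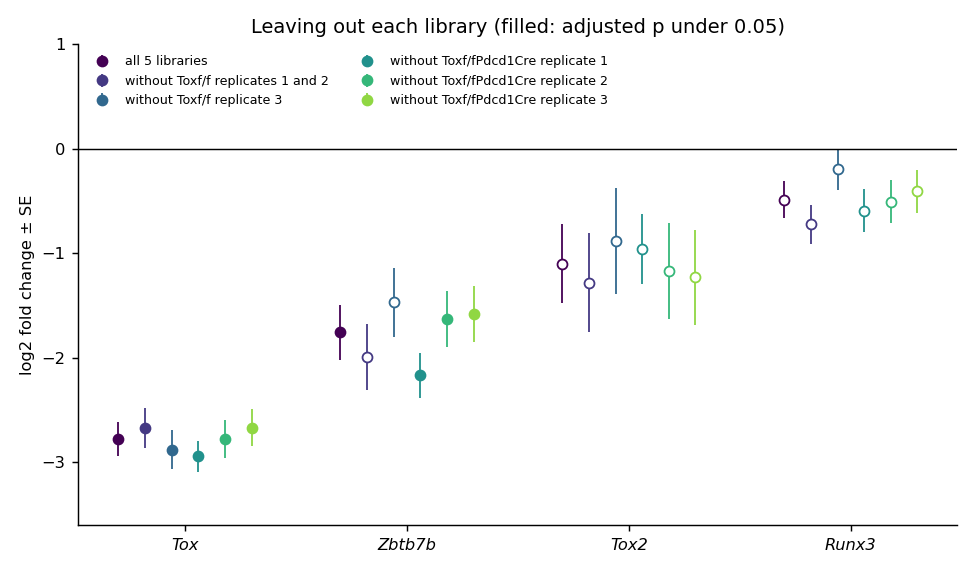
Log2 fold change ± SE of Tox, Zbtb7b, Tox2 and Runx3 with all 5 libraries and without each in turn; filled points were called. Tox is filled throughout, Zbtb7b is open without either Toxf/f library, and Tox2 and Runx3 are open throughout, with Runx3 nearest 0 (-0.20) without Toxf/f replicate 3.

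The deposited counts and FPKM also hold a transcript length, since FPKM divides the count by length and by the library total. For Tox this length was 3956 to 3961 bases in the 5 libraries, where its only coding transcript, Tox-201, has 3961 bases. Tox4 gave 5350 to 5351 bases, against 5350 for Tox4-201, and Gata3 gave 3214 to 3216, against 3215 for Gata3-201. For these 3 genes 1 fixed length stood behind the FPKM in both genotypes, so the FPKM of Tox was computed on the full annotated length, whatever the deletion left.

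Zbtb7b differed. Its implied length was 2810 and 3059 bases in Toxf/f and 3748, 2623 and 3671 bases in Toxf/fPdcd1Cre libraries, a 1.43-fold range with overlapping groups. GENCODE lists 8 coding transcripts of it from 354 to 4333 bases, and the deposited values do not say which of them entered its length. Tox2 ranged from 2035 to 2943 bases, Tox3 from 2001 to 2427, Runx1 from 4733 to 5737 and Runx3 from 3171 to 3817. Patz1 and Satb1 moved less, from 2698 to 2861 and from 3505 to 3640. Only Tox3 and Patz1 had lengths that did not overlap between genotypes, longer in Toxf/fPdcd1Cre (2324, 2311 and 2427 against 2247 and 2001 bases for Tox3, and 2848, 2861 and 2834 against 2698 and 2778 bases for Patz1), which was not tested. Among 8168 genes with at least 5 FPKM in every library, of which Patz1 is 1 and Tox3 is not, lengths did not overlap in the longer direction in 6.70% and in the shorter direction in 8.80%. In the same genes the longest implied length exceeded the shortest by more than 1.2-fold in 8.77%, and the median ratio was 1.03. FPKM fold changes of Zbtb7b, Tox2, Tox3, Runx1, Runx3, Patz1 and Satb1 therefore contain these length estimates, and the counts do not. For Patz1 the log2 fold change was 0.01 on counts and -0.12 on log2(FPKM + 1).

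**Figure D5:**
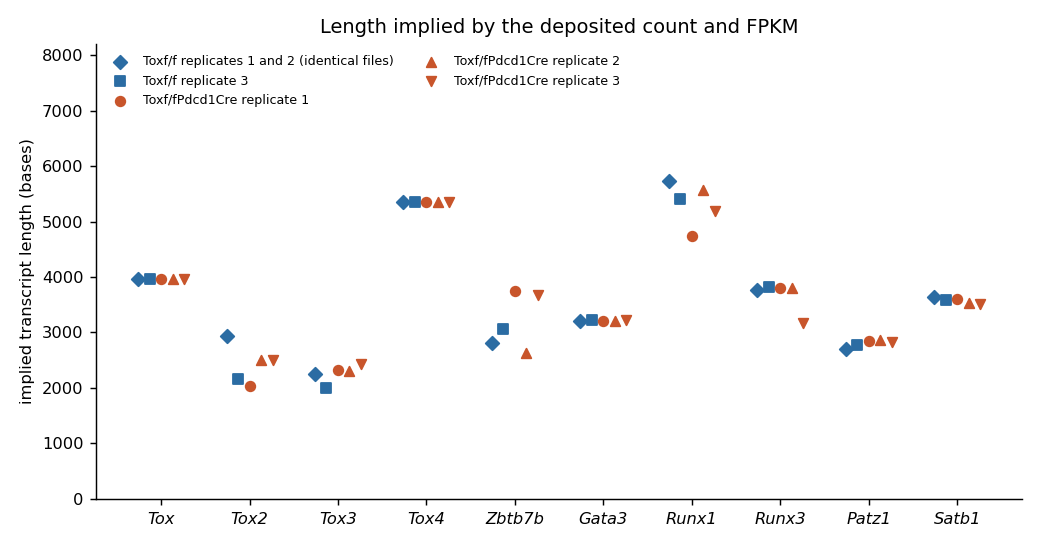
Transcript length in bases implied by each library's deposited count and FPKM for the 10 genes, blue for Toxf/f and orange for Toxf/fPdcd1Cre. Tox, Tox4 and Gata3 hold 1 length in all libraries, whereas Zbtb7b spreads from 2623 to 3748 bases without separating the genotypes.

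Other genes of lineage choice were read from lists, which were also chosen with earlier results of these data known. The coreceptor genes themselves were not called: Cd4 was at 909 and 845 CPM in Toxf/f and 718, 982 and 877 CPM in Toxf/fPdcd1Cre libraries (log2 fold change -0.03, 95% interval -0.38 to 0.32, adjusted p = 0.980, edgeR). Cd8a and Cd8b1 had log2 fold changes of 0.17 and 0.03 (adjusted p = 0.846 and 0.985, edgeR). Cd4 levels overlapped between the groups and Zbtb7b levels did not, and which cells held either transcript was not tested. Of 10 tested genes of the CD4 lineage 2 were lower and 0 higher, with a median log2 fold change of 0.01. These were Cd40lg, the ligand by which helper T cells act on B cells, at -2.35 (adjusted p = 0.0268, edgeR), and the interleukin 7 receptor gene Il7r at -0.75 (adjusted p = 0.0496, edgeR). Il7r is not particular to this list, as the later lists of early double-negative and of natural killer and innate lymphoid markers count it too. Of 12 genes of the CD8 lineage 1 was lower, the chemokine gene Ccl5 at -1.85 (adjusted p = 0.0143), and 0 higher, with a median of -0.18. Without Toxf/fPdcd1Cre replicate 2, 1 of these 12 was called higher. With the shared Toxf/f library left out, Cd40lg, Il7r and Ccl5 were not called (adjusted p = 0.227, 0.249 and 0.133), nor were they without Toxf/f replicate 3 (adjusted p = 0.325, 0.464 and 0.294). When Toxf/fPdcd1Cre replicate 3 was left out, the CD4 lineage list had 0 called (Cd40lg at adjusted p = 0.0745, Il7r at 0.162), and without replicate 2 of that genotype 1 (Il7r at 0.0934). The Il7r call also ended with RLE or upper-quartile factors, the 10 CPM filter, both FPKM scales and age as a covariate (adjusted p from 0.0571 to 0.118), and the Cd40lg call with upper-quartile factors, the 10 CPM filter, log2(FPKM + 0.1) and age (adjusted p from 0.0515 to 0.0600). With Toxf/fPdcd1Cre replicate 1 left out, Cd40lg was at -3.28 and Ccl5 at -2.44.

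Of 23 tested regulators of Cd4, Cd8 and Zbtb7b, such as Bcl11b, Tcf7, Myb and Cbfb, 1 was lower and 0 higher, with a median of 0.05. It was Lef1, an HMG-box factor that acts with Tcf7 in CD4 T cell development, at -0.70 ± 0.138 (adjusted p = 0.0288, edgeR). Lef1 was also the only one called of 18 HMG-box genes, whose median was 0.14. The call of Lef1 ended with age as a covariate (adjusted p = 0.0686) and without Toxf/fPdcd1Cre replicate 2 (adjusted p = 0.0677), which left 0 called in both lists. Without Toxf/fPdcd1Cre replicate 1 the count of lower regulators was 2. Among 11 zinc finger and leucine zipper factors with a POZ domain, the protein class of ThPOK and MAZR, 1 was lower, Bach2, a repressor that keeps T cells from effector fates, at -1.50 ± 0.193 (adjusted p = 0.00290, edgeR). No member was called in either direction among 8 tested cofactors and relatives of the RUNX factors, 7 of the GATA factors, 3 relatives of Satb1, 5 genes of the phosphatase complex of TOX4 and 10 genes of the HBO1 acetyltransferase complex, which TOX is known to bind (medians 0.05, -0.11, 0.26, 0.09 and 0.14). Of 11 genes listed under calcineurin and NFAT signalling, which is known to induce Tox, 2 were lower, with a median of -0.02. They were Nr4a1 at -1.18 and Nr4a3 at -1.17 (adjusted p = 0.00536 and 0.00862, edgeR). Both are nuclear receptor genes and encode neither calcineurin nor an NFAT factor. The other 9 genes of this list were not called. On log2(FPKM + 0.1) Nr4a3 was not called (adjusted p = 0.0525, limma). Without Toxf/f replicate 3 none of Lef1, Bach2, Nr4a1 and Nr4a3 was called (adjusted p = 0.294, 0.102, 0.130 and 0.224), and without the shared Toxf/f library Bach2 alone of these was (adjusted p = 0.0475, against 0.264 for Lef1, 0.107 for Nr4a1 and 0.0805 for Nr4a3).

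Markers of other cells moved beside Zbtb7b. Mature single-positive thymocytes, in which Zbtb7b and Runx3 are known to be high, had 7 of 17 tested markers lower and 0 higher, with a median of -0.45, and none was at 0 in all libraries. The summed level of these markers was 1966 and 2038 CPM in Toxf/f and 1460, 1603 and 1544 CPM in Toxf/fPdcd1Cre libraries. The 4 with the smallest p were the GTPase gene Gimap3 at -2.0, the homing receptor gene Ccr7 at -2.19, the transcription factor gene Klf2 at -1.23 and the egress receptor gene S1pr1 at -1.73 (adjusted p = 0.000353, 0.000508, 0.00301 and 0.00353, edgeR). With the shared Toxf/f library left out, 3 of the markers were lower, and without Toxf/f replicate 3, 2 were, Gimap3 and Ccr7 in both cases. Of 9 regulatory T cell markers 5 were lower and 0 higher (median -0.9955), with summed levels of 302 and 347 CPM against 299.6, 224 and 259 CPM. The 4 with the smallest p were Tnfrsf4 at -3.31, Tnfrsf9 at -2.33, the lineage factor gene Foxp3 at -4.96 and Ikzf4 at -1.96. On log2(FPKM + 0.1) Ikzf4 was not called (adjusted p = 0.0628, limma). Of these markers 3 were lower with the shared Toxf/f library left out, and 2 with Toxf/f replicate 3 left out. By contrast 0 of 12 double-positive thymocyte markers were called (median 0.13), and their summed levels overlapped, at 12680 and 11570 CPM in Toxf/f and 11420, 14570 and 14340 CPM in Toxf/fPdcd1Cre libraries.

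Of 12 dendritic cell markers 4 were lower and 0 higher, the chemokine gene Ccl22 at -2.81, the antigen presentation genes H2-Eb1 at -0.91 and Cd74 at -0.74, and the cytokine receptor gene Flt3 at -1.05 (median -0.74, summed 1884 and 2190 against 1333, 1204 and 1020 CPM). Of 12 B and plasma cell markers the immunoglobulin genes Igkc at -3.45 and Jchain at -3.80 were lower, and 0 were higher (median -0.55, summed 476 and 439 against 273, 294 and 271 CPM). Of 13 early double-negative markers 3 were lower, Flt3, Il7r and the adhesion receptor gene Cd44 at -0.67, and 0 higher (median -0.34, summed 510 and 754 against 762, 648 and 680 CPM). Of 11 tested gamma-delta and innate-like T cell markers 2 were higher, Cd163l1 at 3.35 and the receptor constant gene Trdc at 0.86, and 0 lower (summed 607 and 551 against 986, 761 and 736 CPM). The median of these 11 was 0.72. It was 0.11 when Toxf/fPdcd1Cre replicate 1, which had the highest sum, was left out. Of 10 tested natural killer and innate lymphoid markers Il7r was lower and the receptor genes Klrk1 at 1.69 and Klrb1c at 1.80 were higher. These 2 went against most of the list, as 8 of the 10 had a log2 fold change below 0 (median -0.32, summed 254 and 264 against 243, 209 and 195 CPM). Of 13 markers of thymic epithelium and stroma the keratin gene Krt14 was lower at -1.29 (median 0.10, summed 2386 and 2676 against 2947, 2770 and 2644 CPM), and of 11 macrophage and granulocyte markers 0 were called (median -0.26, summed 974 and 804 against 484, 708 and 644 CPM). Without Toxf/fPdcd1Cre replicate 1 the lower counts were 2 for natural killer and innate lymphoid cells, 2 for epithelium and stroma and 2 for macrophages and granulocytes, Ccl22 was at -3.61 and Cd163l1 at 2.59. Without Toxf/fPdcd1Cre replicate 2, Jchain was at -4.57, 4 gamma-delta markers were higher and 1 early double-negative and 1 macrophage marker lower, and Il7r was lost from the natural killer list. Without Toxf/fPdcd1Cre replicate 3, 1 gamma-delta marker was higher and 1 dendritic cell marker lower, and 0 markers of early double-negative, natural killer or stromal cells were lower. Without either Toxf/f library 2 B and plasma cell markers stayed called lower, and the lists of dendritic, early double-negative, gamma-delta, natural killer and stromal cells had 0 called in either direction. The calls of Trdc, Klrb1c, Krt14, Flt3 and Cd44 ended with the 10 CPM filter, both FPKM scales and age as a covariate. Their adjusted p there ran from 0.0518 to 0.137 (edgeR, limma for FPKM). Upper-quartile factors ended these calls except that of Flt3. Trdc was lost with RLE factors (adjusted p = 0.0551, edgeR) and Klrb1c with voom (adjusted p = 0.0653, limma). Cd74 was lost with age (adjusted p = 0.0720, edgeR) and Klrk1 on log2(FPKM + 0.1) (adjusted p = 0.0502, limma). The part of these cells in the values of Zbtb7b, Tox2 and Runx3 was not tested.

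The genes most like the 2 called ones were sought by the distance between log2 CPM profiles over the 5 libraries, each centred on its mean, among 12727 genes. Closest to Tox were Amigo2, an adhesion protein gene, the chemokine gene Cxcl9 and Tnfrsf9, a costimulatory receptor gene, at distances of 0.447, 0.631 and 0.634. Each was called lower (-2.91, -2.52 and -2.33 on the log2 scale, adjusted p = 0.000574, 0.000474 and 0.000574, edgeR). Closest to Zbtb7b were Pthlh, Mtarc1 and S1pr1, at distances of 0.135, 0.197 and 0.201, of which S1pr1 alone was called (adjusted p = 0.109, 0.0646 and 0.00353, edgeR). S1pr1 held 31.95 and 38.6 CPM in Toxf/f and 14.9, 9.0 and 8.05 CPM in Toxf/fPdcd1Cre libraries, the same order of libraries as Zbtb7b. With 5 libraries in 2 groups these are descriptions of shared level patterns. Genes picked for a profile like that of a called gene share its direction by selection. Their calls and order of libraries are therefore not separate results.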

How the data were processed

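Per the file headers, the authors deposited for each sample an estimated count and an FPKM value per gene. The submitters' processing notes name HISAT2, StringTie 1.3.1 and fastp 0.18.0. What each did, which genome build was used, how reads were counted and whether strand was used is not given in the sources used here. Before testing, estimated counts were rounded and filtered with filterByExpr, which left 14121 of 22298 genes. After TMM scaling, edgeR 4.0.16 (R 4.3.3) tested genotype by quasi-likelihood, with no covariate and 2 against 3 libraries, where the design had 3 against 3. SE and 95% intervals come from the same fit. Positions come from GENCODE M21 on GRCm38 by Ensembl identifier and may differ from the authors' build. Implied length is the count divided by FPKM and by the library's total count, in bases. Members and 21 lists of other genes were chosen with earlier results of these data known. The naming rule gave all 10 members, the coreceptor genes, up to 4 called genes a list and the 3 profiles nearest each called member. Alternatives were RLE and upper-quartile factors, other filters, DESeq2 1.42.0, limma 3.58.1 with voom or on log2(FPKM + 1) and log2(FPKM + 0.1), age, a replicate block, identical files kept separate, a log2 limit of 1 and leaving out each library.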

Additional observations from a re-analysis of the deposited data

How the results depend on the processing

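Of the 10 genes 2 were lower and 0 higher under each alternative, except that 1, Tox, was lower without either Toxf/f library, so the range on leaving out a library was 1 to 2 lower and 0 to 0 higher. With the replicate number as a block 2 were lower and 0 higher, whether the library of the identical files took number 1 or number 2, which its header carries (the second chosen after seeing the data). With the shared library as number 1, same-numbered libraries correlated at -0.203 (number 1) and -0.158 (number 3) in their deviations from the group means; as number 2 it correlated at 0.109 with Toxf/fPdcd1Cre replicate 2. With 2 Toxf/f libraries these deviations mirror each other, and the numbers are not taken to pair the samples. Among all genes 213 were lower and 19 higher, and this background moved: 369 and 48 with no low-count filter, 117 and 7 with at least 10 CPM in 2 libraries, 116 and 9 with age as a covariate, 340 and 95 with the block, 769 and 99 with the block by number 2, 325 and 55 with identical files kept separate, and 120 and 6 on log2(FPKM + 0.1). The higher calls were 9 with upper-quartile factors, 43 with DESeq2 and 8 on log2(FPKM + 1). Leaving out a library gave 28 to 586 lower and 2 to 30 higher; with 1 Toxf/f library left, it is assumed to vary like the others.

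Uncalled genes near 0 changed sign. Tox3 was at -0.0574 on log2(FPKM + 1), -0.077 on log2(FPKM + 0.1) and from -0.085 to 0.40 on leaving out a library. Tox4 was at 0.0006 with no filter, 0.0853 with the block by number 2 and from -0.0703 to 0.046 on leaving out a library. Patz1 was at -0.0255 with upper-quartile factors, -0.0301 with the 10 CPM filter, -0.0123 with limma-voom, -0.12 and -0.13 on the FPKM scales, -0.16 with the block, -0.0223 with identical files kept separate and from -0.15 to 0.13 on leaving out a library. Satb1 was at -0.0214 with the block and from -0.0386 to 0.18, and Runx1 from -0.0291 to 0.22, on leaving out a library. The cause was not tested. At 20 to 79 counts a library, Tox2 and Tox3 had the widest intervals of the 10 genes.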
